A study of Mus musculus with 6 samples.

Results

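The AP-1 and Egr immediate-early genes were taken by name from the deposited counts as *Fos*, *Fosb*, *Fosl1*, *Fosl2*, *Jun*, *Junb*, *Jund*, *Egr1*, *Egr2* and *Atf3*, 10 of the 55809 genes in the table. Of these, 9 passed the filter on low counts, as did 15733 genes in all. *Fosl1* did not pass and was not tested. With BMP7, all 3 Jun genes and *Fos* were higher, *Egr1* and *Egr2* were lower, and *Fosb*, *Fosl2* and *Atf3* did not pass the test.

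AP-1 is a dimer of basic leucine zipper proteins. Jun proteins can pair with one another, with Fos proteins or with some ATF proteins, whereas Fos proteins need a partner from another family. Egr proteins are zinc-finger factors that bind GC-rich promoter sequences. Many genes of both families are transcribed within minutes of a growth factor or stress signal, without new protein synthesis, and their mRNAs are usually short-lived. In the mammary gland they are known from growth factor responses and from the remodelling of the gland after weaning.

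The measurements were poly(A) RNA-sequencing counts from HC11, a mouse mammary epithelial cell line derived as a clone from the gland of a pregnant mouse. There were 3 libraries from cells in medium without BMP7 (Ctrl) and 3 from cells given BMP7, a secreted ligand that signals through BMP receptors and SMAD1/5. For stimulation, HC11 cells were starved for 16 h in a medium for which neither serum nor EGF is listed and then given BMP7 at 50 ng per mL for 30 min or 6 h. Which duration the libraries represent is not given in the sources used here, and the levels below are given without reading a duration from them. The BMP7 libraries carry the numbers 1, 3 and 4 in the deposited table and are named by them. Nothing in the labels says that the libraries came from separate cultures, so p-values measure the spread between these libraries, which may be technical.

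The libraries held 14607938 to 23748970 counted fragments. *Krt5* and *Krt14*, keratins of basal mammary cells, had Ctrl means of 1203 and 1985 CPM (counts scaled to library size) per kb of exon, far above the luminal keratins *Krt8* and *Krt18* at 32.3 and 34.4, although HC11 served as a luminal line in the study. The epithelial adhesion gene *Epcam* stood at 291 on this scale, and the milk protein gene *Csn2* had no count in Ctrl. The BMP7 libraries were not alike in markers of other cell types. The summed level of 12 adipocyte markers was 15.99 to 26.6 CPM in Ctrl and 28.6, 98.1 and 86.6 CPM in BMP7 replicates 1, 3 and 4, and 8 of the 9 tested rose. None of the 12 was at 0 in a BMP7 library. *Adipoq*, which defines adipocytes, had 24, 13 and 17 counts in Ctrl and 15, 104 and 70 counts in BMP7 replicates 1, 3 and 4, with overlapping groups by CPM. For 14 macrophage markers the sum was 52.0 to 56.4 CPM in Ctrl and 55.0, 28.9 and 27.4 CPM with BMP7, with 2 of the 10 tested lower and *Aif1* alone at 0 in a BMP7 library, replicate 1. The part of these cells in the results below was not tested, but each test was repeated with BMP7 replicate 1, whose adipocyte and macrophage sums lay nearest to those of Ctrl, as the only BMP7 library. In that setting, chosen after seeing the data, the spread comes from Ctrl alone and the lone BMP7 library is assumed to vary like it, so its calls have no replicate of their own in the BMP7 group. For 10 epithelial markers the order was another: the sum was 8065 to 8215 CPM in Ctrl and 9844, 8509 and 8822 CPM in BMP7 replicates 1, 3 and 4. Of the 8 tested, *Krt14* and *Trp63* were higher and *Krt18*, *Epcam* and *Cdh1* lower.

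Calls rest on edgeR's quasi-likelihood test across all 15733 genes, with 0.05 as the limit for the Benjamini-Hochberg adjusted p and 1.2 for the fold change. Levels are CPM after scaling by trimmed mean of M values (TMM). On these terms 11.4% of all tested genes were called, 5.99% higher and 5.38% lower with BMP7. Of the 9 tested AP-1 and Egr genes, 4 were higher and 2 lower. The median log2 fold change was 0.06 over the 9 and -0.01 over all tested genes. In bulk RNA, fewer cells expressing a gene and less of its RNA per cell cannot be told apart.

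**Figure D1:**
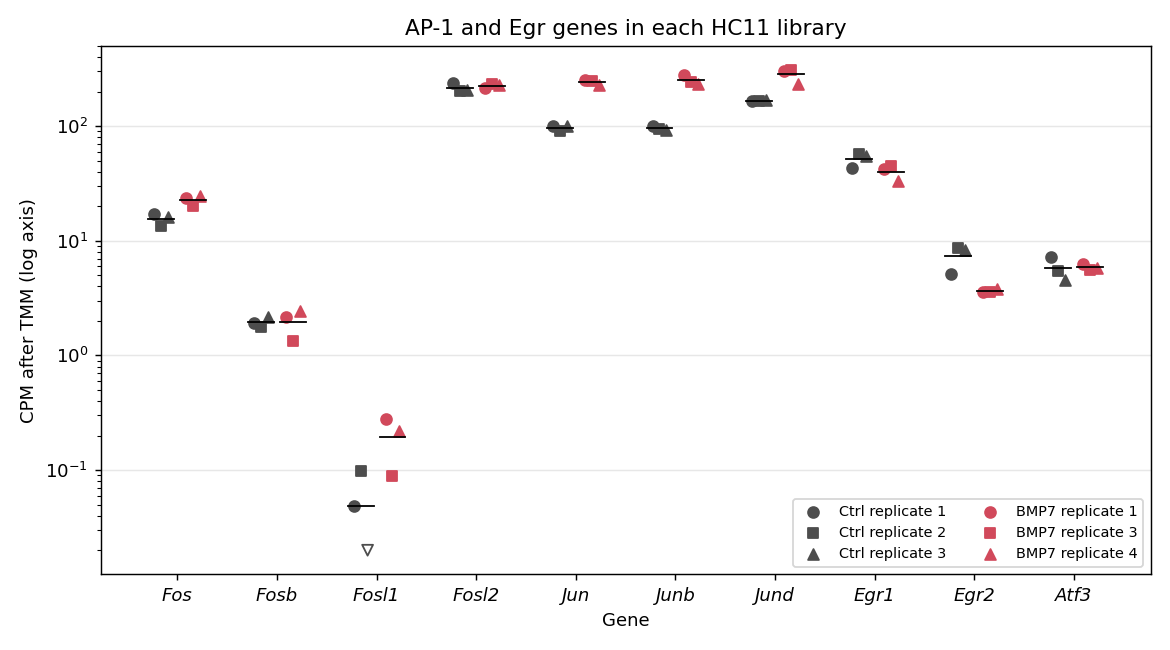
Level of each of the 10 genes in each library, in CPM after TMM on a log axis. Gray symbols are Ctrl replicates 1 to 3, red symbols BMP7 replicates 1, 3 and 4, bars the group means, and the open triangle marks the Ctrl library with 0 counts for *Fosl1*. The BMP7 libraries lie above every Ctrl library for *Jun*, *Junb*, *Jund* and *Fos* and below every Ctrl library for *Egr2*, and the groups overlap for *Egr1*.

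The Jun genes, whose proteins form AP-1 dimers with one another or with Fos proteins, rose together. *Jun*, which encodes c-Jun, stood at 101, 90.1 and 100.1 CPM in Ctrl replicates 1, 2 and 3 and at 254, 249 and 227 CPM in BMP7 replicates 1, 3 and 4. *Junb*, whose protein activates transcription less strongly than c-Jun at many sites and can oppose it, stood at 100.2, 94.5 and 92.3 CPM in Ctrl and at 278, 242 and 234 CPM with BMP7. In both genes the lowest BMP7 library was more than 100 CPM above the highest Ctrl library. The means went from 97.1 ± 6.14 to 243 ± 14.4 CPM for *Jun* (SD, n = 3) and from 95.7 ± 4.10 to 252 ± 23.1 CPM for *Junb* (SD, n = 3). *Jun* was 2.50-fold higher, a log2 fold change of 1.32 with a standard error of 0.07, and *Junb* was 2.63-fold higher, a log2 fold change of 1.39 with a standard error of 0.07 (edgeR adjusted p = 7.96e-10 for each). By fold change they ranked 186 and 169 among all tested genes, and they were the only AP-1 and Egr genes past 2-fold upward, a mark that 1.6% of all tested genes met upward and 2.31% in either direction. Their 95% intervals, 1.18 to 1.47 for *Jun* and 1.24 to 1.54 for *Junb*, overlap, and the difference between their responses was not tested.

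*Jund*, usually regarded as the Jun gene that is transcribed at a steady level in resting cells, also rose. Its level was 166, 167 and 168 CPM in Ctrl, the least spread for its mean among the 10 genes in Ctrl, and 304, 309 and 235 CPM with BMP7. BMP7 replicate 4 lay well below replicates 1 and 3, yet above every Ctrl library. The mean went from 167 ± 1.24 to 283 ± 41.4 CPM (SD, n = 3), a log2 fold change of 0.76 with a standard error of 0.08 and a 95% interval of 0.58 to 0.94 (edgeR adjusted p = 9.2e-06). That interval lies below those of *Jun* and *Junb*, but the differences were not tested. The exact two-sided permutation test gave p = 0.1 for *Jun*, *Junb*, *Jund*, *Fos* and *Egr2*, the smallest that 3 against 3 libraries allow. Libraries of the groups did not overlap in 29.8% of all tested genes. With BMP7 replicate 1 alone, the log2 fold changes of *Jun*, *Junb* and *Jund* were 1.39, 1.54 and 0.87.

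The counting leaves these levels understated to unequal degrees. Fragments in exon bases that belong to more than one gene were not counted, and such bases make up 52.6% of *Jund*, shared with the gene model *Gm11175*, 7.28% of *Jun*, shared with its antisense gene *Junos*, and 7.52% of *Junb*, shared with the peroxiredoxin gene *Prdx2*. *Gm11175* had 0 counts in every library. *Junos* stood at 2.64 to 3.32 CPM in Ctrl and 2.04 to 2.58 CPM with BMP7 and was not called, but without strand its reads and those of *Jun* cannot be told apart in the shared stretch. Per kb of unshared exon, *Jund* stood at 210 to 213 CPM in Ctrl and at 385, 391 and 297 CPM in BMP7 replicates 1, 3 and 4. Apart from these genes and *Ccdc85b*, which overlaps *Fosl1*, no transcript of another gene matched one of the 10 genes over at least 100 bases at 95% identity. Of the called genes named further below, *Zfp36l2*, *Maf*, *Mafg*, *Rps6ka5*, *Elk3*, *Ccnd1*, *Phlda1*, *Etv5*, *Tnc*, *Gadd45a* and *Hspb1* had such matches. *Sphk1* matched transcripts of 65 other genes. What these matches do to the levels was not tested.

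On the annotation that the deposited table uses (mm39), *Jun* is at chr4:94937271-94940459 on the minus strand, *Junb* at chr8:85701113-85705347 on the minus strand and *Jund* at chr8:71151599-71153265 on the plus strand. The 250 bases before the RefSeq starts of *Jun* and *Junb*, the AP-1 and Egr genes with the largest rises, are printed. They lie at chr4:95052223-95052472 and chr8:84978749-84978998, both on the minus strand of GRCm38.p6, an earlier build than that of the counts, and are written 5′ to 3′.
Jun: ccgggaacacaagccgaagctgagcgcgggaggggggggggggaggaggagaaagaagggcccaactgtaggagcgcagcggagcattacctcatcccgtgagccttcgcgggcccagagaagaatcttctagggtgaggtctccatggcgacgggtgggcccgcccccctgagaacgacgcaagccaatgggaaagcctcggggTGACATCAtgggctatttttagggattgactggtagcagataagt
Junb: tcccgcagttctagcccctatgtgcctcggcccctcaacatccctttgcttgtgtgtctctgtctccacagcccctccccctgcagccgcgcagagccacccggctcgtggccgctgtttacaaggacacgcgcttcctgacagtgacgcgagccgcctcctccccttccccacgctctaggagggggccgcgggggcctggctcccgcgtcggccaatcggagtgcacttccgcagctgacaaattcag
Capitals mark TGACATCA, an AP-1 and ATF element known from the *Jun* promoter, at positions -45 to -38 from the start. The search covered both strands for TGACATCA, TGACGTCA, TGANTCA, the CArG box bound by serum response factor, the Egr element GCGNGGGCG, the BMP-responsive SMAD element GGCGCC, the SMAD-binding letters GTCTG, and TATAAA. No other of these was found in the *Jun* window, and none in those of *Junb*, *Jund* and *Atf3*. Of 32851 RefSeq windows of this length, 2.93% hold TGACATCA, 1.55% TGACGTCA and 6.75% TGANTCA. A match describes letters and does not show a site in use.

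*Fos*, the founding member of the Fos family and among the most rapidly induced genes known, was also higher, from a level that was low beside those of the Jun genes. It stood at 17.1, 13.5 and 16.2 CPM in Ctrl and at 23.6, 20.2 and 24.4 CPM with BMP7. The groups did not overlap, but the gap between Ctrl replicate 1 and BMP7 replicate 3 was narrow. The mean went from 15.6 ± 1.89 to 22.7 ± 2.25 CPM (SD, n = 3), a 1.45-fold rise with a log2 fold change of 0.54, a standard error of 0.11 and a 95% interval of 0.31 to 0.77 (edgeR adjusted p = 0.00304). The *Fos* interval lay wholly below that of *Jun*, and the difference was not tested as such. *Fos* had 274 to 454 counts per library. With BMP7 replicate 1 alone the log2 fold change was 0.60. The call was lost when the fold of 1.2 was itself tested against (adjusted p = 0.0557 with edgeR's glmTreat).

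*Fos* is at chr12:85520664-85524047 on the plus strand of mm39. The window before its RefSeq start is printed because it is the only one of the 8 genes with a window to hold GGCGCC more than once, at chr12:85473640-85473889 on the plus strand of GRCm38.p6.
Fos: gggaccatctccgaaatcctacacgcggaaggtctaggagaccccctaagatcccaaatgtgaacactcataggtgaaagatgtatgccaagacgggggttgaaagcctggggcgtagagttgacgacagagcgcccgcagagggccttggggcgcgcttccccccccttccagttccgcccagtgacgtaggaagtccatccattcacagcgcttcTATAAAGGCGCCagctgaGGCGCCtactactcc
Capitals mark TATAAA at -33 to -28, directly followed by GGCGCC at -27 to -22 and again at -15 to -10. GGCGCC is found in 9.59% of all windows and TATAAA in 12.4%. *Fosb* held GGCGCC once, at -125 to -120, and GCGNGGGCG at -50 to -42. *Fosl2* held GGCGCC at -203 to -198 and GCGNGGGCG at -79 to -71, and GCGNGGGCG is found in 4.7% of all windows. All 250 bases of the *Fosl2* window lie within annotated exons of *Fosl2* itself. Of the genes holding GGCGCC, *Fos* was called higher, and *Fosb* and *Fosl2* did not pass the test. Whether the element acts in these cells was not tested.

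None of the other Fos genes passed the test. *Fosl2*, which encodes Fra-2, a Fos protein that lacks the strong activation domain of c-Fos and usually appears later, was the most abundant Fos gene, at 237, 202 and 207 CPM in Ctrl and 215, 231 and 228 CPM with BMP7. The groups overlapped fully, with the highest value in Ctrl replicate 1. Its log2 fold change was 0.06 with a 95% interval of -0.08 to 0.20 (edgeR adjusted p = 0.624), an upper limit of a 1.15-fold rise. *Fosb*, known for lasting isoforms in stimulated neurons, stood at 1.93, 1.77 and 2.15 CPM in Ctrl and 2.16, 1.33 and 2.42 CPM with BMP7. At 30 to 44 counts per library its interval ran from -0.59 to 0.58 on the log2 scale (edgeR adjusted p = 0.995). That interval does not exclude a change of up to about 1.5-fold.

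*Fosl1*, which encodes Fra-1 and is often expressed in invasive epithelial cells, had 1, 2 and 0 counts in Ctrl and 4, 2 and 4 counts with BMP7. At or near the floor of 3 counts, no fold is given. Of its exon bases, 57.2% are shared with *Ccdc85b* and gave no counts, so the level is understated. *Ccdc85b* itself stood at 10.1 to 10.95 CPM in Ctrl and at 11.4, 6.71 and 8.76 CPM with BMP7 and was not called. *Fosl2* is at chr5:32293145-32315186 and *Fosl1* at chr19:5497575-5505974, both on the plus strand, and *Fosb* at chr7:19036621-19043976 on the minus strand (mm39).

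*Atf3*, a stress-induced ATF protein that pairs with Jun proteins and often represses, did not pass the test. It stood at 7.18, 5.51 and 4.55 CPM in Ctrl and 6.27, 5.60 and 5.84 CPM with BMP7, with every BMP7 value inside the Ctrl range. The log2 fold change was 0.03 with a 95% interval of -0.34 to 0.40 (edgeR adjusted p = 0.932). It is at chr1:190902493-190950236 on the minus strand (mm39).

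The Egr genes moved the other way. *Egr2*, known as Krox20 and first described in hindbrain and Schwann cells, stood at 5.10, 8.60 and 8.26 CPM in Ctrl and at 3.55, 3.56 and 3.80 CPM with BMP7. The BMP7 libraries were close together and all below Ctrl, in which replicate 1 was lower than the other two. The mean fell from 7.32 ± 1.93 to 3.64 ± 0.142 CPM (SD, n = 3), a log2 fold change of -1.01 with a standard error of 0.20 and a 95% interval of -1.43 to -0.59 (edgeR adjusted p = 0.00222). These are 51 to 175 counts per library. With BMP7 replicate 1 alone the log2 fold change was -1.04, of about the same size, with a larger standard error (edgeR adjusted p = 0.0533).

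*Egr2* is at chr10:67371305-67378018 on the plus strand of mm39. A window of *Egr2* is printed because of its CArG box. A CArG box is in 4 of its 5 RefSeq windows and in no window of the other 7 genes. The windows that overlap the printed one hold the same box, CCATATATGG, and a separate window upstream holds another, CCTTTTTTGG. The search covered only 250 bases before each start, and *Egr1* and *Fosl1* had no window, so boxes elsewhere were not looked for. The printed window lies at chr10:67537619-67537868 on the plus strand of GRCm38.p6.
Egr2: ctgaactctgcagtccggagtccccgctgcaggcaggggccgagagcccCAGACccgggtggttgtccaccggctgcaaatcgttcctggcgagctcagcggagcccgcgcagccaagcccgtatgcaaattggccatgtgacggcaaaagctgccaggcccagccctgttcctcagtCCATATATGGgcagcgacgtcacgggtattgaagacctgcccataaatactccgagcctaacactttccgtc
Capitals mark CAGAC, the reverse of GTCTG, at -201 to -197 and the CArG box at -72 to -63. A CArG box is found in 1.47% of all windows and GTCTG in 42.2%.

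*Egr1*, the most widely expressed Egr gene and a standard reporter of ERK signalling, stood at 43.0, 57.0 and 55.4 CPM in Ctrl and at 42.6, 44.6 and 33.4 CPM with BMP7. Ctrl replicate 1 lay within the BMP7 range, so the groups overlapped. The mean went from 51.8 ± 7.68 to 40.2 ± 5.99 CPM (SD, n = 3), a log2 fold change of -0.36 with a 95% interval of -0.60 to -0.13, which passed edgeR's test narrowly (adjusted p = 0.0396). The exact two-sided permutation test gave p = 0.2. The edgeR call was lost without Ctrl replicate 2 (-0.29, adjusted p = 0.202), Ctrl replicate 3 (-0.31, 0.133), BMP7 replicate 1 (-0.40, 0.0532) or BMP7 replicate 4 (-0.25, 0.149). It was kept without Ctrl replicate 1 or BMP7 replicate 3. The gene is on chromosome 18, at bases 34992876 to 34998037 of the plus strand (mm39).

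**Figure D2:**
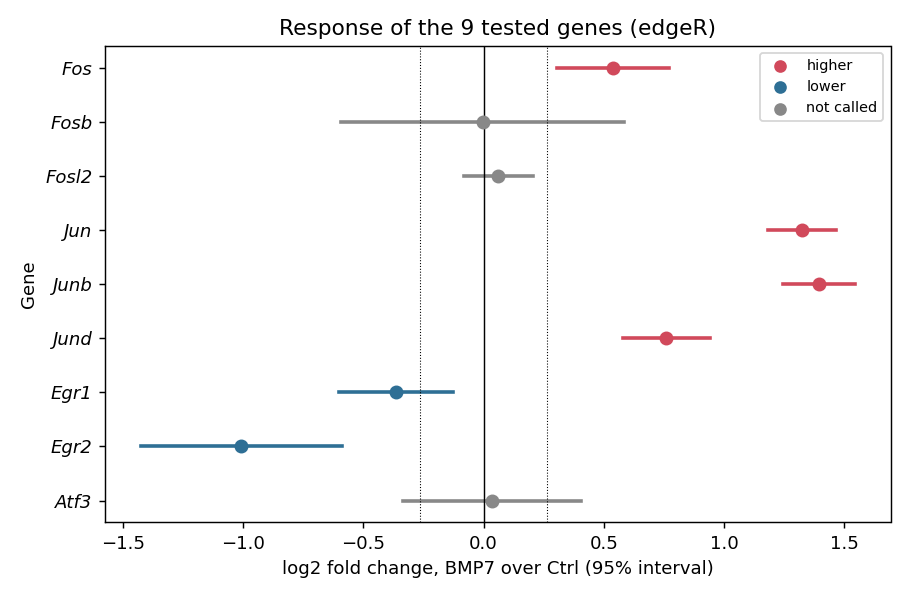
Log2 fold change of BMP7 over Ctrl for the 9 tested genes from edgeR, with 95% intervals as horizontal lines and dotted lines at a fold of 1.2 in either direction. *Jun* and *Junb* lie at 1.32 and 1.39, *Jund* and *Fos* at 0.76 and 0.54, *Egr1* and *Egr2* at -0.36 and -1.01, and the intervals of *Fosb*, *Fosl2* and *Atf3* span 0.

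Levels can be compared between genes only per length of exon. In CPM per kb, the Ctrl means were 100.2 for *Jund*, 41.6 for *Junb*, 30.5 for *Jun*, 22.3 for *Fosl2*, 11.5 for *Egr1*, 6.63 for *Fos*, 2.67 for *Atf3*, 2.16 for *Egr2* and 0.312 for *Fosb*. Neighbours in this order were separated in every Ctrl library except for *Atf3* and *Egr2*, whose ranges of 2.11 to 3.33 and 1.502 to 2.53 overlapped. By the mean over all libraries of both groups, *Jund* lay above 97.9% of all tested genes, *Fos* above 58.9% and *Fosb* above 6.38%. With BMP7 the means were 170 for *Jund*, 109 for *Junb*, 76.3 for *Jun*, 23.2 for *Fosl2*, 9.67 for *Fos*, 8.96 for *Egr1*, 2.74 for *Atf3*, 1.07 for *Egr2* and 0.316 for *Fosb*. *Fos* and *Egr1* thus changed places by their means, but their ranges with BMP7, 8.58 to 10.4 and 7.44 to 9.95, overlapped.

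Summed per kb of exon, the Jun family stood at 175, 169 and 172 in Ctrl and at 383, 369 and 314 in BMP7 replicates 1, 3 and 4, means of 172 ± 2.62 and 355 ± 36.4 (SD, n = 3). The Fos family sum was 32.1, 26.9 and 28.6 in Ctrl and 32.7, 32.7 and 34.5 with BMP7, and the Egr sum of *Egr1* and *Egr2* was 11.1, 15.2 and 14.8 against 10.5, 10.998 and 8.56. The Fos sums were only just separated and the Egr sums did not overlap, also by a small margin. The ratio of Jun to Fos sums went from 5.45, 6.29 and 6.02 to 11.7, 11.3 and 9.11, means of 5.92 ± 0.428 and 10.7 ± 1.39 (SD, n = 3). These sums and ratios are transcript levels, not dimers, and inherit the understated levels of genes with shared exon bases. Per kb of unshared exon the ratio of Jun to Fos sums went from 9.93 ± 0.781 to 16.8 ± 2.40 (SD, n = 3).

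The makeup of each family shifted with the unequal changes. The share of *Jund* in the Jun family went from 58.2 ± 1.14% to 47.6 ± 2.70%, that of *Junb* from 24.1 ± 0.835% to 30.8 ± 2.04% and that of *Jun* from 17.7 ± 0.879% to 21.5 ± 0.984% (SD, n = 3). *Jund* remained the largest contributor in each library. Because the uncounted shared bases of *Jund* lower its share on this scale, the shares were also taken per kb of unshared exon. There *Jund* went from 73.1 ± 0.928% to 63.9 ± 2.50%, *Junb* from 15.5 ± 0.616% to 21.3 ± 1.76% and *Jun* from 11.4 ± 0.621% to 14.8 ± 0.903% (SD, n = 3). Within the Fos family, *Fosl2* held 76.2 ± 1.37% in Ctrl and 69.7 ± 2.82% with BMP7, and *Fos* 22.7 ± 1.39% and 29.0 ± 2.44% (SD, n = 3). *Egr1* made up 83.4 to 86.4% of the Egr sum in Ctrl and 86.9 to 90.5% with BMP7.

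**Figure D3:**
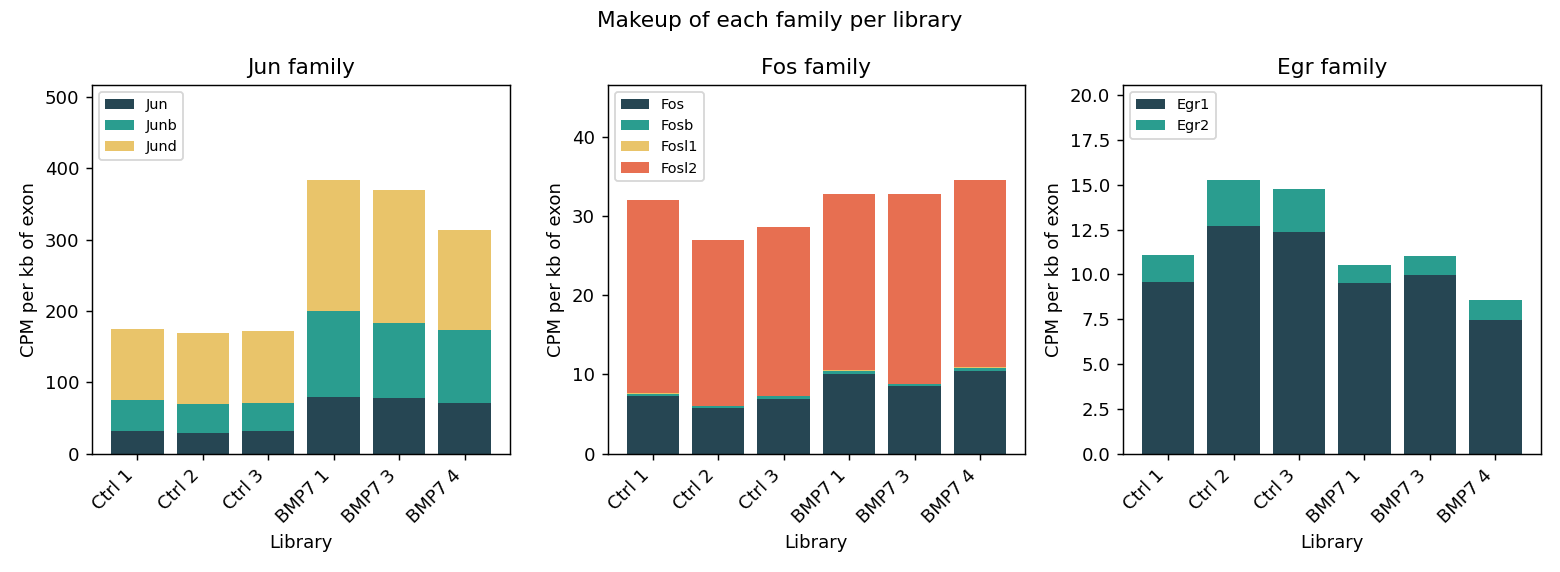
Stacked levels of the Jun, Fos and Egr genes in each library, in CPM per kb of exon, with a separate linear axis from 0 for each family. The Jun stacks stand at 169 to 175 in Ctrl and 314 to 383 with BMP7 with every Jun gene larger, the Fos stacks stay between 26.9 and 34.5 and are mostly *Fosl2*, and the Egr stacks are mostly *Egr1*.

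Ratios between genes within a library do not depend on the scaling of libraries. *Jun* over *Egr1* per kb was 3.31, 2.22 and 2.54 in Ctrl and 8.39, 7.84 and 9.56 with BMP7. *Fos* over *Egr1* was 0.759, 0.451 and 0.557 in Ctrl and 1.06, 0.862 and 1.39 with BMP7. *Egr1* over *Egr2* was 6.38, 5.02 and 5.08 against 9.08, 9.51 and 6.66, so that *Egr2* was lower also relative to *Egr1*. Ctrl replicate 1 and BMP7 replicate 4 were only just separated, *Egr2* had 51 to 175 counts per library, and the ratio was not tested. In each of these ratios the BMP7 libraries lay above all Ctrl libraries.

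Profiles most like those of *Fos* and *Egr1* over the 6 libraries were sought, for 11296 candidates averaging 5 CPM or more, by the root-mean-square difference of centred log2 CPM. For *Fos* they were *Pxdc1* (0.0489), *Ngef* (0.0565), *Zfp608* (0.0774), *Phf13* (0.0856) and *Arhgef28* (0.0890). For *Egr1* they were *Etv4* (0.0401), *Tmem41a* (0.0585), *Mns1* (0.0598), *Syde1* (0.0692) and *Arid5a* (0.0701). *Etv4*, an ETS factor transcribed in response to ERK signalling, stood at 25.8, 35.1 and 32.5 CPM in Ctrl and 24.3, 25.5 and 19.3 CPM with BMP7. As in *Egr1*, its lowest Ctrl value was in replicate 1 and its lowest BMP7 value in replicate 4. Such likeness follows from choosing genes by these same values and is no separate evidence.

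Other immediate-early genes moved in both directions. Of 39 tested out of 42 listed, 11 rose and 7 fell, 46.2% against 11.4% over all tested genes, and their median log2 fold change was 0.04. The largest rises were in *Ptgs2*, which encodes the prostaglandin synthase COX-2 (1.80, edgeR adjusted p = 1.39e-11), the matricellular gene *Ccn1* (1.74), the growth arrest gene *Gadd45b* (1.55), long known to respond to TGF-beta, and the pseudokinase gene *Trib1* (0.87). *Ptgs2* stood at 59.1 to 67.4 CPM in Ctrl and at 212 to 230 CPM with BMP7. The largest falls were in *Egr3* (-1.38, edgeR adjusted p = 0.0204), another Egr gene, the polo-like kinase genes *Plk3* (-0.65) and *Plk2* (-0.55), and *Zfp36l2* (-0.58), whose protein promotes mRNA decay. *Egr3* was near the limit of detection, at 31, 37 and 39 counts in Ctrl and 16, 13 and 7 counts with BMP7, and its call was lost without Ctrl replicate 2, Ctrl replicate 3, BMP7 replicate 3 or BMP7 replicate 4.

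Other classical early genes, chosen after their values were seen, gave the following values. *Nr4a1*, an orphan nuclear receptor gene, had a log2 fold change of 0.04 (edgeR adjusted p = 0.853), *Myc* of -0.22 (0.243) and *Ier2* of -0.22 (0.065). *Srf*, which encodes serum response factor, rose by 0.29 and *Dusp1*, a MAP kinase phosphatase gene, by 0.47 on the log2 scale. The *Srf* call was lost without Ctrl replicate 1, Ctrl replicate 2 or BMP7 replicate 3, that of *Dusp1* with each library left out except BMP7 replicate 4, and both when the fold of 1.2 was itself tested against. *Egr4*, *Gem* and *Npas4* did not pass the filter on low counts.

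Among AP-1 dimer partners and Egr corepressors, 3 of 14 tested genes rose and 1 fell, out of 16 listed, 28.6% against 11.4% over all tested genes. Among those that rose were *Batf3* (2.04, edgeR adjusted p = 0.0125) and *Maf* (0.45), both basic leucine zipper genes, and the small Maf gene *Mafg* fell (-0.27). *Batf3* had only 3 to 7 counts in Ctrl and 15 to 18 with BMP7, and its call was lost with 3 of the 6 libraries left out in turn. *Nab2*, a corepressor of Egr proteins that Egr proteins themselves induce, had a log2 fold change of 0.26 that fell short of the fold threshold (edgeR adjusted p = 0.0383), and *Nab1* had -0.05 (0.654). Without Ctrl replicate 1 only 2 of the list were called.

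Of 33 tested kinases and promoter factors upstream of the early genes, out of 34 listed, 2 rose and 0 fell, 6.06% against 11.4% over all tested genes, but 8 of the 33 passed the adjusted p alone, as 13.7% of all tested genes did. The called genes were *Rps6ka5* (1.18, edgeR adjusted p = 2.97e-07), which encodes the nuclear kinase MSK1 that acts at early gene chromatin, and *Elk3* (0.30), a ternary complex factor that binds beside serum response factor. *Rps6ka5* stood at 10.3 to 11.7 CPM in Ctrl and at 23.6 to 25.4 CPM with BMP7. Without Ctrl replicate 3 or BMP7 replicate 4, 4 of the list were called.

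Of the 10 transcripts listed as readouts of the ERK pathway, 4 were lower and 1 was higher among the 9 tested, 55.6% called against 11.4% over all tested genes, of which 5.38% were lower. The lower genes were the ETS genes *Etv5* (-1.71, edgeR adjusted p = 1.01e-05) and *Etv4* (-0.43), the ERK phosphatase gene *Dusp6* (-0.65) and the cyclin gene *Ccnd1* (-0.39), and the higher was *Phlda1* (0.94). *Dusp6* stood at 44.7, 61.6 and 54.6 CPM in Ctrl and at 33.1, 36.5 and 32.6 CPM with BMP7. For *Ccnd1* the groups overlapped and the call was lost with 5 of the 6 libraries left out in turn, that of *Etv4* with 3, and the level of *Etv5* is uncertain because it shares a near-identical stretch with the pseudogene *Gm4798*. Without Ctrl replicate 2, Ctrl replicate 3 or BMP7 replicate 4, and with BMP7 replicate 1 alone, 3 of the list were called. The median log2 fold change of the list was -0.20.

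Of 20 genes listed for known AP-1 control, 18 were tested, 3 rose and 1 fell, 22.2% called against 11.4% over all tested genes, with a median log2 fold change of 0.01. The matrix gene *Tnc* (1.01, edgeR adjusted p = 9.98e-09) and *Timp1* (0.33), an inhibitor of matrix metalloproteases, were among those that rose, and the sphingosine kinase gene *Sphk1* fell (-0.62). The *Timp1* call was lost with 3 of the 6 libraries left out in turn.

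Heat-shock and integrated stress response genes, which, like AP-1 genes, can respond to the handling of cells, gave 3 rises and 1 fall among 17 tested, 23.5% called against 11.4% over all tested genes, with a median log2 fold change of 0.15. *Gadd45a* (1.33, edgeR adjusted p = 3.65e-06), the glutathione-degrading enzyme gene *Chac1* (0.43) and the small heat-shock gene *Hspb1* (0.33) rose, and *Trib3* fell (-0.37), with overlapping groups. The calls of *Chac1* and *Trib3* were each lost with 4 of the 6 libraries left out in turn, and that of *Hspb1* with 2. Each of these calls was also lost with glmTreat. *Hspb1* has near-identical pseudogenes and its level is uncertain. Without BMP7 replicate 1 only 1 of the list was called, and without Ctrl replicate 1 or BMP7 replicate 3, 2 were called. Direct BMP target genes rose in 7 of 7 cases, against 5.99% called higher over all tested genes. Their median log2 fold change was 2.82, and *Id3* (6.31), *Id1* (4.28) and *Id2* (2.82) were among the largest. *Atoh8* had 4, 1 and 0 counts in Ctrl and 104, 165 and 132 counts in BMP7 replicates 1, 3 and 4. With Ctrl near the floor, the size of its log2 fold change (6.38) is uncertain. It was not tested when 10 counts were required in every library. The call of *Bambi* (0.57, edgeR adjusted p = 0.0394) was lost with 5 of the 6 libraries left out in turn. *Id1* stood at 7.61 to 8.21 CPM in Ctrl and at 142 to 162 CPM with BMP7.

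**Figure D4:**
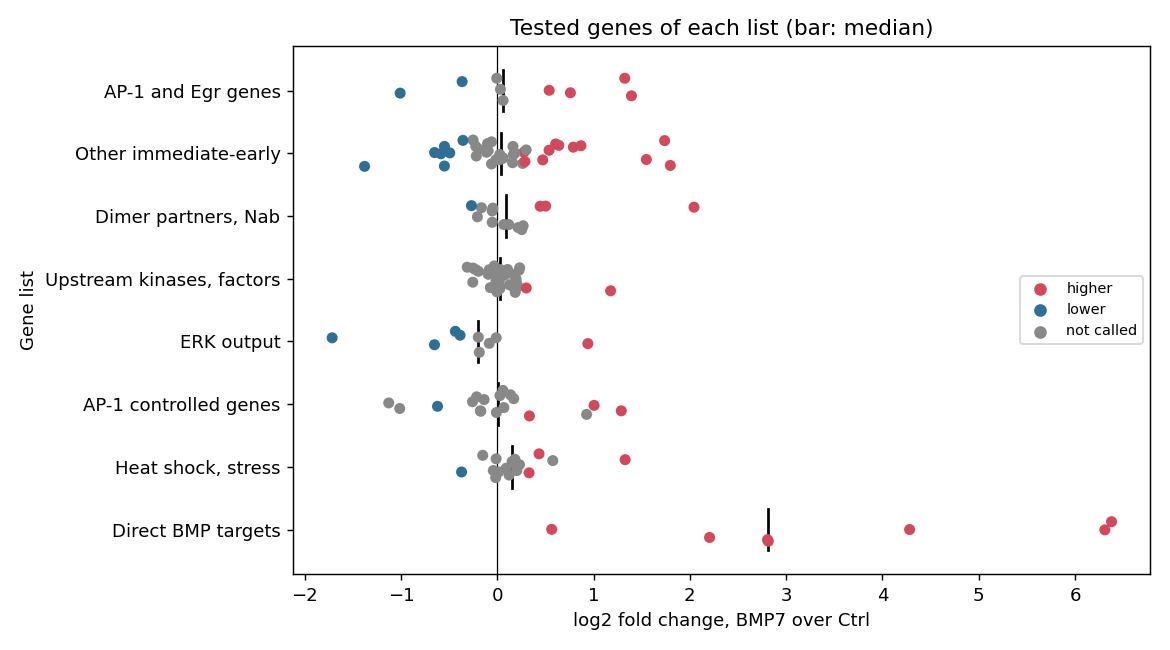
Log2 fold change of BMP7 over Ctrl for each tested gene of 8 lists, 1 point per gene, with a vertical bar at each list's median. Red points were called higher, blue points lower and gray points were not called. The AP-1 and Egr genes and the other immediate-early genes spread to both sides of 0, with medians of 0.06 and 0.04, whereas all 7 direct BMP targets lie to the right.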

How the data were processed

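Poly(A) RNA of 6 HC11 libraries was sequenced. The authors aligned the reads with Subread 2.0.3 and deposited whole-number counts of fragments per gene made with featureCounts (2.0.1 in the file header, paired, unstranded, fragments in several genes or places not counted). The methods name an mm10 alignment, whereas coordinates in the deposited counts are on mm39, so gene positions are given on mm39. Reads aligned to one build and counted on the other would be assigned to wrong genes. Whether this happened was not tested. In these counts all 7 direct BMP target genes were higher with BMP7, the mean of *Id3* going from 1.87 to 149 CPM and that of *Id1* from 7.90 to 154 CPM. All columns were assigned by group from the labels (0 columns left out). Genes were filtered with filterByExpr, scaled by TMM and tested with edgeR 4.0.16 in R 4.3.3 (glmQLFit, glmQLFTest, no covariates, 3 against 3 libraries). Library totals were 14607938 to 23748970, and replicates differed by more than sampling noise. Single genes were also compared by an exact permutation test on log2 CPM (prior count 2). Alternatives were DESeq2 1.42.0, other scalings, filters and thresholds, and each library left out. Promoter windows came from RefSeq (GRCm38.p6), which matched 8 of the 10 genes (not *Fosl1* or *Egr1*).

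The AP-1 and Egr genes and all lists were chosen with earlier results of these data known. From each list up to 4 higher and 4 lower genes were named by size of log2 fold change, and for *Fos* and *Egr1* the 5 genes with the nearest profiles. Some genes that this rule would name are not reported here.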

Additional observations from a re-analysis of the deposited data

How the results depend on the processing

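Over 12 alternatives that kept the fold of 1.2, the calls for *Jun*, *Junb*, *Jund* and *Egr2* held in all 12, with log2 fold changes of 1.27 to 1.37, 1.32 to 1.44, 0.69 to 0.88 and -1.21 to -0.88. *Fos* kept its call in 11 (0.45 to 0.63) and *Egr1* in 7 (-0.48 to -0.25). Requiring a fold change of 2 left 2 AP-1 and Egr genes higher and 1 lower. Testing against a fold of 1.2 with glmTreat left 3 higher and 1 lower. Leaving out 1 library gave 4 higher throughout and 1 to 2 lower, and BMP7 replicate 1 alone gave 0 lower (4 higher).

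Called genes in the lists moved with the threshold. At a fold change of 2 they numbered 4 of the other early genes, 1 partner, 1 upstream gene, 1 ERK output gene, 2 AP-1-controlled genes and 1 stress gene. With glmTreat they numbered 11, 2, 1, 3, 3 and 1, in that order. Upper-quartile scaling gave 4 upstream genes, the adjusted p alone gave 8 upstream and 6 stress genes, and BMP7 replicate 1 alone gave 3 ERK output genes. Leaving out 1 library gave 12 to 16 other early genes, 2 to 5 partners, 2 to 4 upstream genes, 3 to 5 ERK output genes, 4 to 5 AP-1-controlled genes, 1 to 5 stress genes and 6 to 7 direct BMP targets. Over all genes, a fold change of 2 left 252 higher and 112 lower, glmTreat 494 and 254.

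Genes that did not pass the test changed sign. *Fosb* moved to 0.0069 with DESeq2, 0.00037 with DESeq2 size factors in edgeR, 0.07 without Ctrl replicate 3 and 0.15 with BMP7 replicate 1 alone, and ranged from -0.20 to 0.24 over the libraries left out in turn, the highest without BMP7 replicate 3. *Fosl2* moved to -0.0037 with BMP7 replicate 1 alone. *Atf3* was at -0.11 without Ctrl replicate 3 and -0.0086 without BMP7 replicate 1, and reached 0.23 without Ctrl replicate 1. The cause was not tested. No paired analysis was possible because the BMP7 columns are numbered 1, 3 and 4 while the labels number those libraries 1, 2 and 3. At 0 to 4 counts per library for *Fosl1* and 30 to 44 for *Fosb*, depth limits what can be said of both.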
